A study of Mus musculus with 4 samples.

Results

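The 10 genes described here encode the kinase ATR, its partner, the proteins that switch it on or anchor it to damaged chromatin, and the 9-1-1 clamp. They were taken by name for their part in the signalling that silences unsynapsed chromosomes in meiosis: Atr, Atrip, Topbp1, Etaa1, Mdc1, Rad1, Rad9a, Rad9b, Hus1 and Hus1b. All 10 were found among the 15733 protein-coding genes of the count table, all 10 are autosomal, and all 10 passed the filter on low counts. The libraries are mRNA of mouse pachytene spermatocytes, sorted on Hoechst staining of DNA after single-cell suspensions of testis had been kept for 12 h with 2.5 µM BMH21 or with DMSO as control (mock). There were 2 biological replicates of each condition. BMH21, a DNA intercalator, inhibits RNA polymerase I. All groups share the dissociation of the testis and the culture ex vivo. The strain, genotype and age of the animals, and whether suspensions were pooled, are not given in the sources used here.

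ATR is a kinase of the phosphatidylinositol-3-kinase-like family that responds to single-stranded DNA. It is brought there by its partner ATRIP, which binds the single-stranded DNA-binding protein RPA, and is activated by TOPBP1 or by ETAA1. TOPBP1 reaches the DNA through the 9-1-1 clamp, a ring of RAD9, RAD1 and HUS1 that is loaded by RAD17 with the small subunits of replication factor C. In pachytene spermatocytes ATR accumulates on the unsynapsed axes of the X and Y chromosomes and phosphorylates the histone H2AX, and MDC1, which binds phosphorylated H2AX, carries the kinase and the mark into the chromatin loops. Loss of this signalling in mice is known to disturb the silencing of the sex chromosomes. RAD9B and HUS1B are paralogs of clamp subunits, and RAD9B is known to be enriched in testis.

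Total counts per library ran from 30964370 to 41548269, and levels are given as CPM, counts scaled to library size with edgeR's TMM factors, where 1 count was worth 0.0238 to 0.0320 CPM. The 2 replicates of a group differed by more than counting noise, with a chi-square per degree of freedom of 3.23 in mock and 3.78 in BMH21. Markers of pachytene spermatocytes were abundant, with summed levels of 10300 to 10400 CPM in mock and in BMH21, led by Ldhc and Ybx2. Of those 10 markers 1 was called higher (Ldhc, log2 fold change 0.08) and 5 lower (Ybx2, -0.11, among them), called by the test named in the next paragraph. Spermatid markers summed to 236 to 247 CPM (Prm2 and Tnp2 highest, 0 of 8 called). Early prophase markers summed to 690 to 726 CPM, mostly Meioc and Tex101, with 1 of 5 tested called lower (Rec8). That sum covers 5 of 7 listed genes, and in mock Rec8, Gm960 and Prdm9 were weak, at 6.41, 1.67 and 0.726 CPM. Spermatogonial markers summed to 57.0 and 57.5 CPM in mock and 51.3 and 51.4 CPM in BMH21, with Id4 and Gfra1 highest and 2 of 6 tested called lower (Zbtb16 and Kit). Of the marker genes named so far, DESeq2 called Zbtb16 alone, and Ldhc, Ybx2, Rec8 and Kit lost their calls in it. Among all 10 pachytene markers DESeq2 still called 3 lower, and 0 higher. Sertoli markers (Amh and Ctsl highest), Leydig markers (Star and Insl3), peritubular and endothelial markers (Tagln and Vwf) and macrophage and blood markers (Csf1r and Ptprc) each summed to between 2.51 and 10 CPM. The Sertoli-defining genes Sox9, Wt1 and Gata4 were not among the genes of the count table and entered no sum. The sums cover 4 of 8 listed Sertoli genes, 3 of 6 Leydig genes and 5 of 8 macrophage and blood genes. Of these somatic markers 1 was called, the Leydig gene Star (8.97 to 6.34 CPM). The part of these cells in the results was not tested.

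The comparison of BMH21 with mock asked whether mRNAs of the ATR activation machinery differed after the inhibitor. Of the 10 genes, 1 rose (Topbp1), 2 fell (Rad9a and Mdc1) and 7 did not pass the test (quasi-likelihood test of edgeR, with p adjusted by Benjamini-Hochberg over all tested genes and called under 0.05). Over all 13793 tested genes 29.1% were called, 16.5% higher and 12.5% lower (56.9% of the calls were higher, and 42.1% under upper quartile scaling), so 3 of 10 is close to the background, as it is beside the 27.9% of autosomal genes. At an unadjusted p under 0.05 the same 3 of the 10 genes passed edgeR's test, against 37.5% of all genes. DESeq2 gave the same counts, 1 higher and 2 lower, against 21.7% of all genes it could test. The median log2 fold change of the 10 genes was -0.07, beside 0.00 over all tested genes (-3e-04 before rounding), whose quartiles were -0.17 and 0.18. Without BMH21 replicate 2 the median of the 10 genes was -0.17. In these bulk samples fewer cells of a type and less RNA per cell cannot be told apart.

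**Figure D1:**
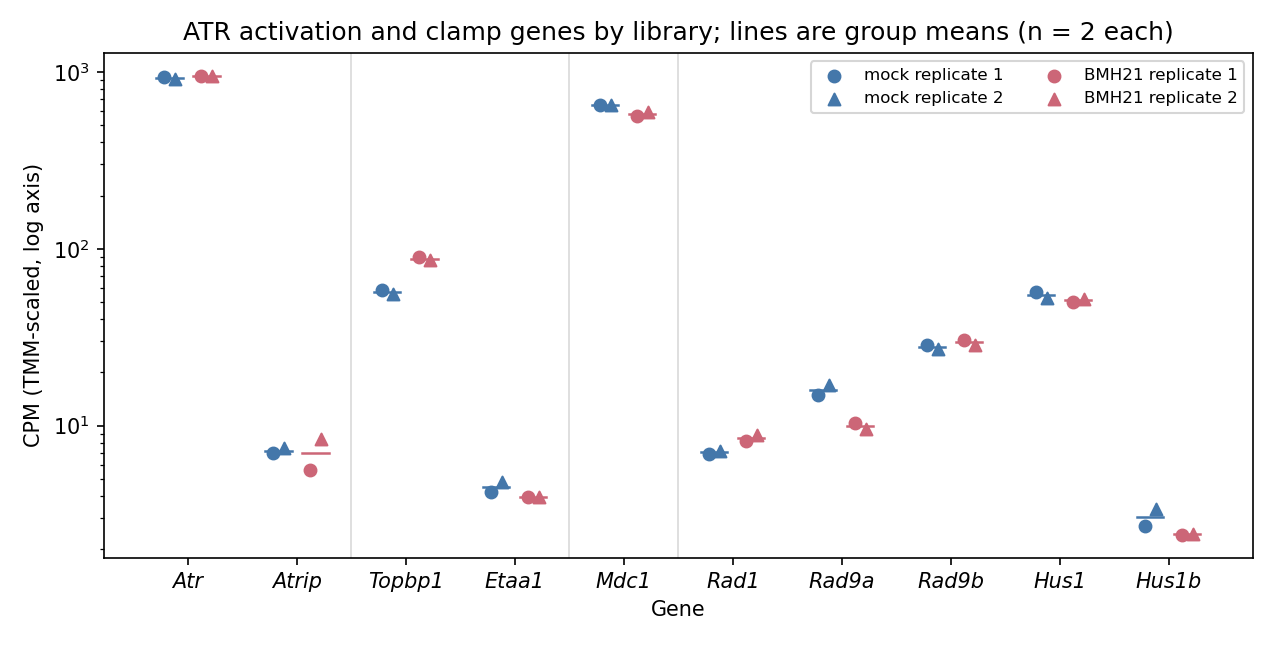
CPM of each gene (log axis) in the 4 libraries, with replicates as circles and triangles and short lines at the group means. Topbp1 lies higher in both BMH21 libraries (86.3 and 89.4 CPM against 55.3 and 58.6), Rad9a lies lower, and the 2 BMH21 libraries stand far apart for Atrip alone.

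Atr itself drew many reads and did not pass the test. The gene lies on chromosome 9 (95857597 to 95951781 on GRCm38, plus strand; ENSMUSG00000032409.16). Its level came to 939 and 915 CPM in the mock libraries and 949 and 951 CPM in the BMH21 libraries, which ranks it 107 of 13793 tested genes by CPM, not corrected for length. The BMH21 libraries lay just above both mock libraries, as they did for 30.9% of all tested genes. The log2 fold change was 0.03 ± 0.02 (SE), with a 95% interval of -0.01 to 0.08 and an edgeR adjusted p of 0.255. Under upper quartile scaling the value was -0.01. Exons of annotated antisense genes overlap 726 and 462 bases of the Atr exons.

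Atrip, the gene of the partner that ATR needs to reach RPA, was weak and differed between the BMH21 replicates. It lies on chromosome 9 (109057933 to 109074124, minus strand). The mock libraries held 6.96 and 7.49 CPM (292 and 234 counts), the BMH21 libraries 5.62 and 8.37 CPM (186 and 310 counts). The 2 BMH21 libraries lay on either side of both mock libraries, so the groups overlapped, and Atrip was the only one of the 10 genes for which they did. The log2 fold change of -0.04 had a 95% interval of -0.37 to 0.29 (edgeR adjusted p = 0.902), and its sign changed with the library left out. Per kilobase of the principal mRNA, Atr was 42.9 and 38.8 times as abundant as Atrip in mock and 53.7 and 36.1 times in BMH21. The exon of Trex1, an exonuclease gene on the same strand, shares 1147 bases with Atrip, 16.04% of its exon length. Trex1 was listed at 0.270 to 0.381 CPM, and the sources used here do not say how reads in the shared stretch were assigned.

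The activators differed. Topbp1, whose protein binds the phosphorylated tail of RAD9 and stimulates ATR, rose about 1.54-fold. The gene lies on chromosome 9 (103305215 to 103350428, plus strand). It was at 58.6 and 55.3 CPM in mock and at 89.4 and 86.3 CPM in BMH21 (mean and SD of 2 libraries, 56.9 ± 2.38 and 87.8 ± 2.16). Both BMH21 libraries stood well above both mock libraries, and the gap between the groups was far wider than the spread within either. On the log2 scale the difference was 0.62 ± 0.05 (SE, 95% interval 0.51 to 0.73), and edgeR gave an adjusted p of 2.47e-15, rank 251 of 13793 by p. It stayed between 0.58 and 0.67, and called, under 11 other settings. The deposited table of the authors gives 0.62 for Topbp1 as well.

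Etaa1, whose protein activates ATR through RPA without the clamp, was at 4.19 and 4.8 CPM in mock and 3.92 and 3.97 CPM in BMH21. It lies on chromosome 11 (17938756 to 17953875, minus strand). The BMH21 libraries were below both mock libraries by less than the distance between the mock libraries. BMH21 differed from mock by -0.18 on the log2 scale, with a 95% interval of -0.59 to 0.22 (edgeR adjusted p = 0.562). Per kilobase of principal mRNA, Topbp1 was 11.2 and 9.22 times as abundant as Etaa1 in mock and 18.2 and 17.4 times in BMH21. The ratios were smaller with the length of all annotated exons. On that length Topbp1 had means of 5.073 CPM per kilobase in mock and 7.825 in BMH21, and Etaa1 1.075 and 0.9429.

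Mdc1, the gene of the adaptor that spreads the H2AX mark, fell by a small amount. It lies on chromosome 17 (35841515 to 35859670, plus strand) and drew 18777 to 27398 counts per library. The mock libraries held 653 and 654 CPM and the BMH21 libraries 567 and 598 CPM. Both BMH21 libraries lay below both mock libraries, as for 29.9% of all tested genes, and they differed more from each other than the mock libraries did. That is a log2 fold change of -0.17 ± 0.02 (SE) and a level 0.892 times that of mock, and the adjusted p of edgeR was 1.38e-07. Alternatives gave -0.21 to -0.13, each of them called. Mdc1 ranked 251 of all tested genes by mean CPM.

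**Figure D2:**
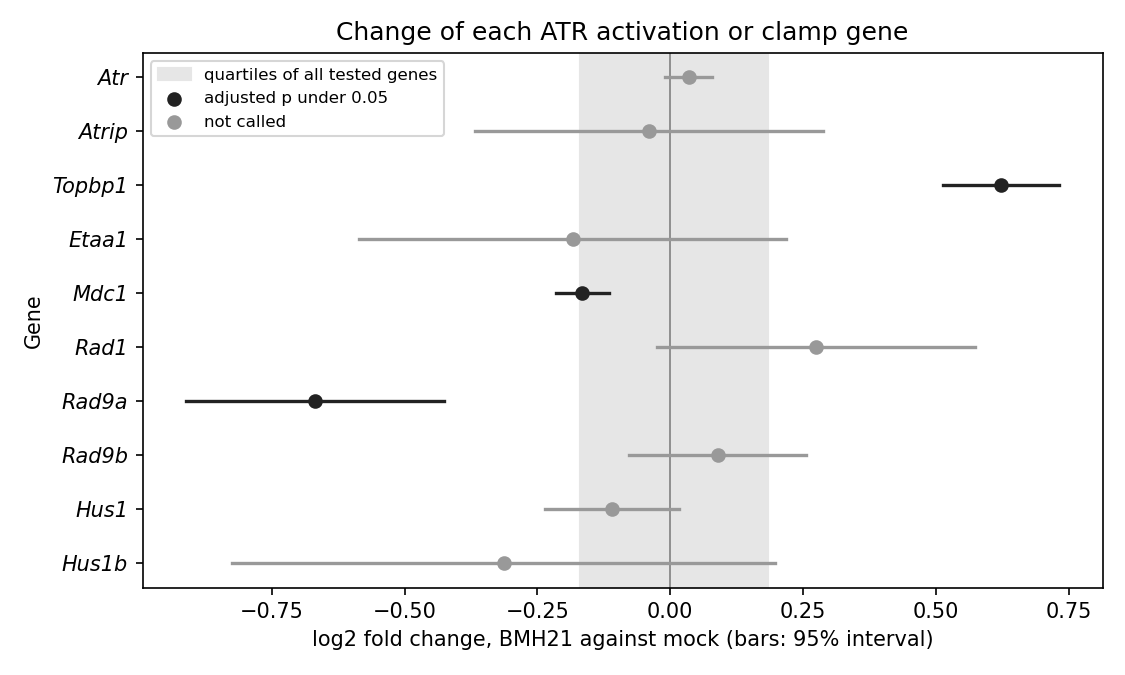
Log2 fold change of BMH21 against mock for each gene with its 95% interval, black where called and grey where not, over a band that marks the quartiles of all tested genes. Topbp1 (0.62) and Rad9a (-0.67) stand farthest outside the band on opposite sides, and Mdc1 (-0.17) lies at its lower edge. Rad1 (0.27), Hus1b (-0.31) and Etaa1 (-0.18), none of them called, also lie outside it. The widest intervals belong to Hus1b and Etaa1.

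The clamp has 1 subunit without a paralog here, Rad1, and 2 with one. Of the 5 genes Rad9a fell, and the other 4 did not pass the test. The coding sequences of the paralogs were compared to see whether reads could be shared between them. Rad9a and Rad9b (1167 and 1209 coding bases) were identical at 63.1% of 1079 aligned bases, and Hus1 and Hus1b (843 and 828 coding bases) at 63.2% of 827. No stretch of 30 bases was common to either pair. The longest shared runs, 13 and 11 bases, are shown in capitals within the coding strand of the GENCODE M21 principal transcripts, from coding base 255 in Rad9a, 279 in Rad9b, 526 in Hus1 and 514 in Hus1b:
Rad9a: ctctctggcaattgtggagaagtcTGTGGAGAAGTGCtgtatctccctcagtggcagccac
Rad9b: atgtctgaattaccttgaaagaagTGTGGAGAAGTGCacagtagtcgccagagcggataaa
Hus1: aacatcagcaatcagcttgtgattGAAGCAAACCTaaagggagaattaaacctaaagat
Hus1b: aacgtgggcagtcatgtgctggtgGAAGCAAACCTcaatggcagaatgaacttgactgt
The bases around each run differ between the paralogs, so a read of 30 bases or more that matches 1 of these coding sequences throughout does not match its paralog.

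Rad9a, the gene of the RAD9 subunit found in most cells, fell to 0.629 of its mock level. It lies on chromosome 19 (4195196 to 4201662, minus strand). Its mock libraries held 14.8 and 16.9 CPM and its BMH21 libraries 10.3 and 9.61 CPM. The groups did not overlap, and the distance between them was larger than the spread within either. This amounts to -0.67 ± 0.12 (SE) on the log2 scale, 95% interval -0.91 to -0.43, and edgeR's adjusted p was 8.47e-06. DESeq2 gave an adjusted p of 0.000179. Across the alternatives the value ran from -0.76 to -0.57, and each kept the call. The Rad9a exons share 225 bases with Ppp1ca on the opposite strand, a gene listed at 0.691 to 1.21 CPM.

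Rad9b, the paralog enriched in testis, did not pass the test. Per kilobase of principal mRNA it was the more abundant of the pair, 2.46 and 2.05 times Rad9a in mock and 3.79 and 3.81 times in BMH21. It lies on chromosome 5 (122323223 to 122354233, minus strand). Its level was 28.5 and 27.1 CPM in mock and 30.6 and 28.7 CPM in BMH21. The lower BMH21 library differed from the higher mock library by less than the spread within either group. Its log2 fold change was 0.09, with a 95% interval of -0.08 to 0.26 (edgeR adjusted p = 0.484). Its exons share 1002 bases, 23.2% of their length, with Pptc7 on the opposite strand, a gene that rose from 35.3 to 46.7 CPM (log2 fold change 0.40, edgeR adjusted p = 7.66e-06). The kit was stranded, the strand setting of the counting is unknown from the sources used here, and the part of Pptc7 reads in the value of Rad9b was not tested.

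Of the counts of Rad9a and Rad9b together, Rad9b took 65.8% and 61.6% in the mock libraries and 74.8% and 74.9% in the BMH21 libraries. Counting error alone gave these shares exact Clopper-Pearson 95% intervals of 63.6 to 68 and 59 to 64.2 for the mock libraries. For the BMH21 libraries they were 72.4 to 77.1 and 72.6 to 77.1. The groups did not overlap, and the means differed by 11.1 percentage points. The share is no separate result from the 2 genes, of which Rad9a fell (log2 fold change -0.67) and Rad9b (0.09) did not pass the test. The two-sided exact permutation test over 2 against 2 libraries gave p = 0.333, which is the smallest p this design allows. Per kilobase of principal mRNA the Rad9b share had a mean of 69.1% over the mock libraries (SD 2.77) and of 79.2% over the BMH21 libraries (SD 0.06). With the length of all annotated exons the means were 49% and 61.9%, so which paralog was the more abundant in mock depended on the length used.

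**Figure D3:**
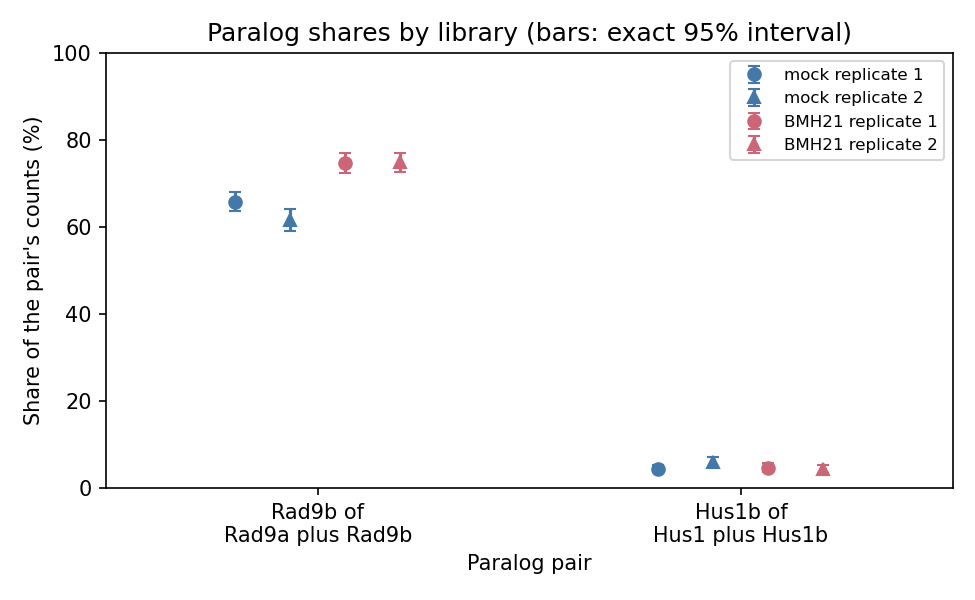
Share of each paralog pair's counts taken by Rad9b (left) and Hus1b (right) in every library, in percent, with exact 95% binomial intervals for counting error. The Rad9b share is higher in both BMH21 libraries (74.8% and 74.9%) than in mock (65.8% and 61.6%), while the Hus1b shares of the 2 groups overlap.

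Hus1, the clamp subunit gene on chromosome 11 (8993137 to 9011191, minus strand), was at 57.1 and 53.0 CPM in mock and 49.9 and 52.2 CPM in BMH21. The gap between the groups was smaller than the spread within mock. For Hus1 the log2 fold change was -0.11, with a 95% interval of -0.24 to 0.02 (edgeR adjusted p = 0.205). Hus1b, an intronless paralog on chromosome 13 (30946573 to 30947759, minus strand), lies inside the transcribed region of Exoc2 on the same strand and shares 0 exon bases with it. It had 80 to 113 counts per library, which came to 2.69 and 3.36 CPM in mock and 2.42 and 2.43 CPM in BMH21. Its log2 fold change of -0.31 had a wide 95% interval of -0.83 to 0.20 (edgeR adjusted p = 0.407). Hus1b took 4.51% and 5.96% of the counts of the pair in mock and 4.62% and 4.45% in BMH21 (exact permutation p = 0.667, two-sided), so the groups overlapped. Exoc2 was at 47.5 to 55.4 CPM, and reads from its introns that fall on Hus1b could not be told from Hus1b mRNA.

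Rad1, the remaining clamp subunit gene on chromosome 15 (10486018 to 10499063, plus strand), was at 6.89 and 7.20 CPM in mock and 8.18 and 8.83 CPM in BMH21. Both BMH21 libraries lay above both mock libraries. A log2 fold change of 0.27 did not pass the test, with a 95% interval of -0.03 to 0.57 and an edgeR adjusted p of 0.177. In all, the BMH21 and mock libraries were separated in 9 of the 10 genes, against 60.9% of all tested genes, and 3 of the 9 were called.

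Set on 1 scale per length, CPM per kilobase of principal mRNA, the genes spanned about 2 orders of magnitude. In mock Atr stood highest at 114 ± 2.14, followed by Mdc1 at 89.1 ± 0.07, Rad9b at 17.1 ± 0.62, Hus1 at 11.9 ± 0.62, Topbp1 at 10.9 ± 0.46 and Rad9a at 7.62 ± 0.71 (SD over the 2 libraries). Rad1 (4.65 ± 0.15), Atrip (2.81 ± 0.15), Hus1b (2.55 ± 0.40) and Etaa1 (1.07 ± 0.10) came last. Of these neighbours Atrip and Hus1b overlapped in mock, and Hus1 and Topbp1 differed by little more than their SDs. In BMH21 Topbp1 (16.8 ± 0.41) came before Hus1 (11 ± 0.35), next to Rad9b (18.2 ± 0.82), and Rad1 (5.62 ± 0.30) came before Rad9a (4.78 ± 0.23). Neighbours in BMH21 did not overlap, but Rad9b and Topbp1, with lowest and highest libraries of 17.59 and 17.11, differed by little. The subunits of the clamp were thus not measured at equal mRNA levels. Per length, Hus1 was 2.70 and 2.40 times Rad1 in mock and 1.99 and 1.93 times in BMH21. With the length of all annotated exons joined in place of the principal mRNA, Mdc1 came first and Atr second in both groups. On that scale Rad9b came after Hus1 and Rad9a in mock, and after Hus1 and Topbp1 but before Rad9a in BMH21. Hus1 was there at 8.531 in mock and 7.915 in BMH21 and Rad1 at 0.9519 and 1.149. The ratio of Hus1 to Rad1 thus depended on the length used.

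**Figure D4:**
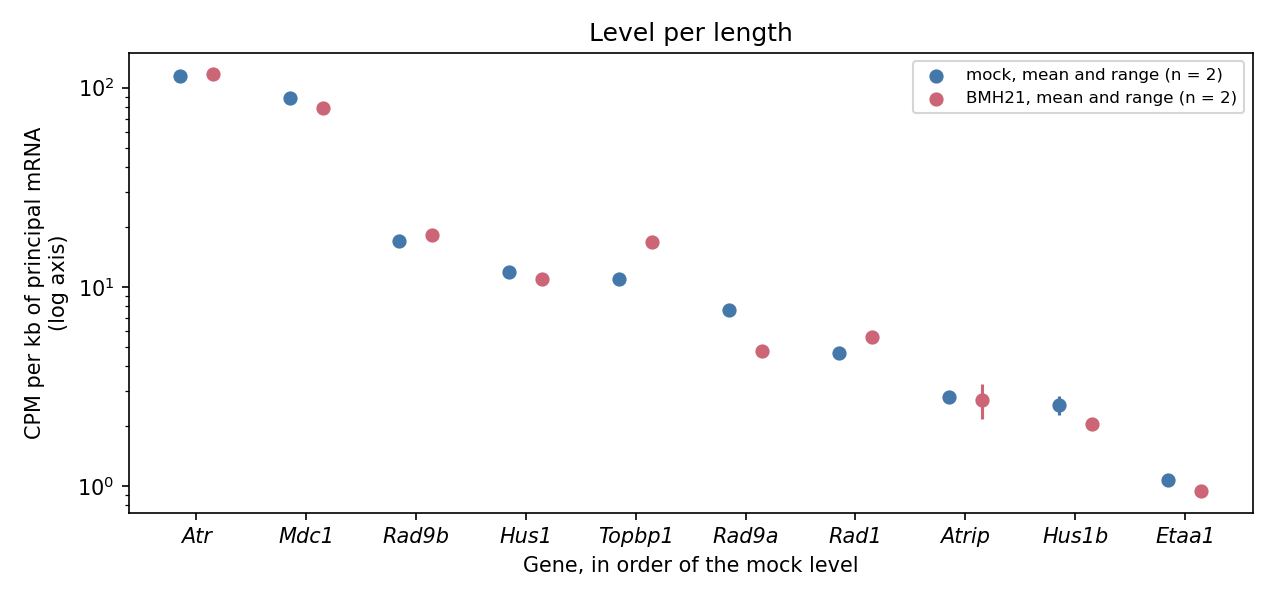
CPM per kilobase of principal mRNA (log axis) for each gene in order of its mock level, with points at the group means and lines over the range of the 2 libraries. Atr and Mdc1 stand apart from the other 8 genes, and Topbp1 and Rad9a change places with neighbours between mock (10.9 and 7.62) and BMH21 (16.8 and 4.78).

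Genes that work next to ATR were counted in 9 lists, which hold 77 genes, 76 of them tested. Of the 76, 19 rose, 12 fell and 45 did not pass the test, so 40.8% were called beside 29.1% of all tested genes. DESeq2 called fewer of them, 23, and 21.7% of all genes it could test. The counts per list below are those of edgeR, which called 16.5% of all tested genes higher and 12.5% lower. The lists were drawn up with earlier results of these data known.

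Among the genes that load or accompany the clamp, 1 of 7 rose and 0 fell. Rad17, the subunit that gives the clamp loader its specificity, rose by 0.35 ± 0.05 (SE) on the log2 scale, from 67.7 CPM (SD 3.26) in mock to 85.9 CPM (SD 1.15) in BMH21, and edgeR's adjusted p was 2.15e-07. The small replication factor C subunits that RAD17 shares with DNA replication, Rfc2, Rfc3, Rfc4 and Rfc5, did not pass. In mock and BMH21 Rhno1, whose protein links the clamp to TOPBP1, was at 20.4 and 20.6 CPM, and 2 models on the opposite strand overlap it. Rad17 was called higher, as Topbp1 and 16.5% of all tested genes were, while Rad9a was called lower.

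Of 6 genes of single-stranded DNA binding, 1 rose and 2 fell. Rpa1, the large subunit of RPA, went from 453 to 425 CPM (log2 fold change -0.09, edgeR adjusted p = 0.00554), a call lost without mock replicate 2 (-0.06). The meiotic RPA partners were called in opposite directions. Spata22 had a log2 fold change of 0.49 and Meiob one of -0.63, and the call of Meiob was lost in DESeq2 (-0.64), without mock replicate 2 (-0.45) and without BMH21 replicate 1 (-0.30). That of Spata22 was lost without BMH21 replicate 2 (0.34). Spata22 shares 80.5% of its exon bases with the model Gm49340 on the same strand, so its value is uncertain.

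Axis proteins and BRCA1 recruit ATR to unsynapsed chromosomes. Of 9 such genes 2 rose and 2 fell. Hormad1, which encodes a HORMA-domain protein of unsynapsed axes, rose from 160 CPM (SD 0.87) to 201 CPM (SD 3.60), a log2 fold change of 0.33 (edgeR adjusted p = 8.68e-12), and Sycp3, an axis component, rose from 125 to 172 CPM (0.46). Sycp3 shares 52.2% of its exon bases with Chpt1 on the opposite strand. Sycp2, the partner of SYCP3, fell by 0.13 on the log2 scale. Brca1 fell from 10.1 CPM (SD 0.55) to 6.93 CPM (SD 0.96), a log2 fold change of -0.54 (edgeR adjusted p = 0.00255), and lost its call without BMH21 replicate 1 (-0.41). Hormad2 had a log2 fold change of -0.01 and did not pass.

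Downstream of ATR, 1 of 9 checkpoint effectors rose and 1 fell. Timeless, a replication fork protein that aids checkpoint signalling, fell from a mean of 13 to 7.97 CPM (log2 fold change -0.71, edgeR adjusted p = 1.69e-05). Clspn, which encodes the mediator that hands CHK1 to ATR, had a log2 fold change of 0.47 (edgeR adjusted p = 0.0273), a call that DESeq2 (0.47) did not make and that leaving out any 1 of 3 libraries, BMH21 replicate 2 excepted, ended (0.31 to 0.49). Chek1, the kinase activated by ATR, was at 2.57 and 3.43 CPM (log2 fold change 0.41 with a 95% interval of -0.08 to 0.90, edgeR adjusted p = 0.227).

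In the list of phosphorylated H2AX and ubiquitin response genes, which includes H2ax, 4 of 9 rose and 1 fell. DESeq2 called 2 of them higher and 1 lower. H2ax itself was at 40.6 and 41.9 CPM (log2 fold change 0.04, edgeR adjusted p = 0.728, and 0.00 under upper quartile scaling, -0.0017 before rounding). The ubiquitin ligase genes Rnf8 (0.28) and Rnf20 (0.26) and the conjugating enzyme gene Ube2n (0.13) passed the edgeR test upward and Uimc1 (-0.39), which encodes RAP80, downward. Each of these 4 calls was lost when some single library was left out, with values of 0.15 to 0.27 for Rnf8, 0.23 to 0.25 for Rnf20, 0.12 to 0.14 for Ube2n and -0.27 to -0.24 for Uimc1. The call of Rnf8 was also lost in DESeq2 (0.27) and that of Ube2n under upper quartile scaling (0.09). Of the exon bases of Rnf8, 13.2% lie in another model on the same strand.

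Of 11 chromatin factors linked to the silencing of the sex body, 4 rose and 2 fell. Setdb1, the H3K9 methyltransferase gene, fell from 138 to 121 CPM (log2 fold change -0.19), and Atf7ip, which encodes its stabilizing partner, fell from 144 to 106 CPM (-0.44, edgeR adjusted p = 6.73e-14). Dnmt1, the maintenance DNA methyltransferase gene, rose from 147 to 190.2 CPM (0.37). Scml2 lies on the X chromosome and rose from 1.99 to 171 CPM. Its rise was not particular to it among X-linked genes. 3830403N18Rik (log2 fold change 5.03) and 1700013H16Rik (3.81) rose as well, while 1700084M14Rik (-0.15) was not called. Of the 13793 tested genes 13427 were autosomal, and these held 3746 of the 4013 calls, so genes off the autosomes were called more often.

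Among genes of the ATR kinase family and of the complex that matures it, 4 of 10 rose and 1 fell. Atm, the kinase that responds to double-strand breaks, was weak, at 6.76 CPM (SD 1.33) in mock and 6.39 CPM (SD 1.13) in BMH21. Its log2 fold change was -0.09 (edgeR adjusted p = 0.745). Its 95% interval ran from -0.43 to 0.24. Smg1, the kinase of nonsense-mediated decay, rose from 481 to 596 CPM (0.31, edgeR adjusted p = 6.73e-17) and Trrap from 197 to 231 CPM (0.23). The AAA ATPase genes Ruvbl1 (0.21) and Ruvbl2 (-0.15), whose products form 1 complex, were called in opposite directions, and Ruvbl1 lost its call in DESeq2 (0.21), under upper quartile scaling (0.16) and without either mock replicate or BMH21 replicate 2 (0.14 to 0.24).

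Of 7 end-processing genes (MRN complex and CtIP among them) 0 were called by edgeR and 0 by DESeq2, with unadjusted p values of 0.0656 or more, so 0 lay under 0.05. Of 8 Fanconi anaemia genes 2 rose and 3 fell. Slx4 (0.22), the scaffold of structure-specific nucleases, and Fanca (0.37) rose, while the ligase gene Fancl (-0.49) and its target Fancd2 (-0.21) fell, the call of Fancd2 being lost without BMH21 replicate 1 (-0.12). Exons of Fanca, Fancl and Fancd2 overlap genes on the opposite strand.

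**Figure D5:**
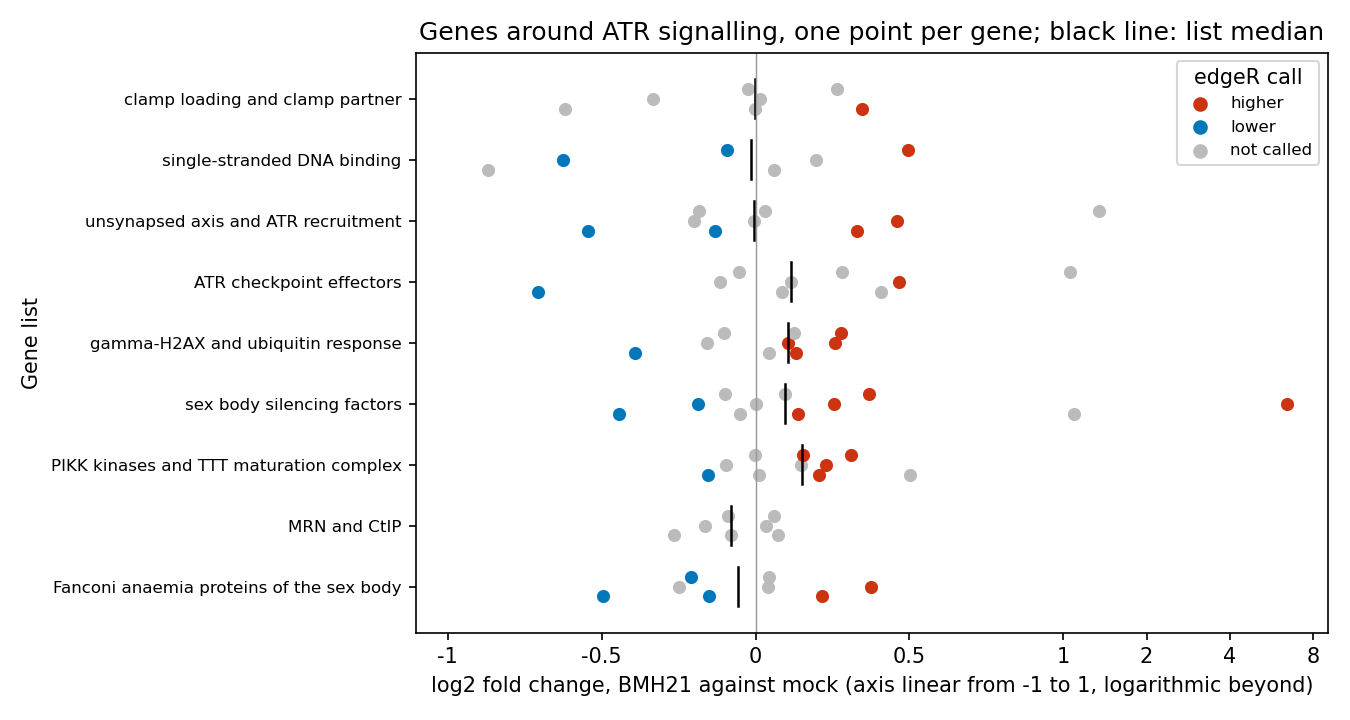
Log2 fold change of each tested gene in the 9 lists around ATR (axis linear from -1 to 1 and logarithmic beyond), coloured by call, with a black line at each list's median. Calls in both directions appear in most lists, 0 of 7 end-processing genes are called, and the point at 6.45 is the X-linked Scml2.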

How the data were processed

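The 4 libraries (2 mock, 2 BMH21) were grouped by the library names in the labels. The authors deposited 1 table with raw read counts per protein-coding gene and library, from which the tests start. Its size-factor-normalized values (signal), log2 fold changes, Wald score and p-values are DESeq2 output that the authors deposited, per the file headers. They entered no test, and the largest difference of a DESeq2 rerun from the deposited log2 fold changes was 2.83e-05. Per the labels' protocols, the library kit for mRNA was stranded. The submitters' processing notes name mm10, the aligner STAR, the counter featureCounts, fastp, SAMtools and DESeq2, without settings. Strand use and handling of multiply mapped reads are not given in the sources used here.

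Counts were tested in R 4.3.3 with edgeR 4.0.16: filterByExpr (minimum count 10, 1940 genes removed), TMM scaling and a quasi-likelihood fit with group alone, on all genes. The SE is the size of the log2 fold change divided by the root of F, an approximation, from which 95% intervals were taken. With 2 replicates a group, p-values borrow their spread from all genes (common biological coefficient of variation 4.09%). Coordinates, lengths and exon overlaps come from GENCODE M21 (GRCm38) by gene identifier, which matched 15670 of 15733 genes. Start and end were the same as in the table for 369 of these, so the table's positions were not used and the annotation behind the counts may differ. The principal mRNA is the longest transcript with the best APPRIS rank. Named genes are the 10 members, up to 4 called genes per list by smallest p, 7 genes named in any case (Rad17, Rhno1, Brca1, Hormad1, Chek1, Atm, H2ax), the 2 most abundant markers per list, and overlapping neighbours, Hormad2, the small Rfc genes, Zbtb16, Kit and Rec8, named with their values known. Gm960, Prdm9 and the X-linked genes beside Scml2 were also named with their values known. The members and lists were chosen with earlier results of these data known. DESeq2 1.42.0, other scalings and filters, a replicate block and leaving out each library were the alternatives.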

Additional observations from a re-analysis of the deposited data

How the results depend on the processing

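The calls of Topbp1, Rad9a and Mdc1, and the 7 genes not called, were the same under all 11 other settings that tested them. Etaa1 and Hus1b were not tested under the stricter filter (mean of at least 5 CPM). Values that changed sign belonged to results that were not called. The log2 fold change of Atr was -0.01 (-0.0107) under upper quartile scaling, and that of Atrip ran from -0.36 to 0.21 with 1 library left out (0.01, or 0.0115, without mock replicate 2). The Hus1b share differed by -0.703 percentage points, and by -1.43 to 0.0241 with 1 library left out (the highest without mock replicate 2) and -2.52 per kilobase of exon length. The members' median log2 fold change ran from -0.17 (-0.1706, without BMH21 replicate 2) to -0.02 (-0.0225) with 1 library left out. Among the genes around ATR, Rhno1 read 0.00 (0.0023) on autosomal genes alone, 0.00 (0.0041) in DESeq2, 0.01 (0.0085) with the block and -0.19 to 0.19 with 1 library left out (0.17 without BMH21 replicate 2). With 1 library left out Atm ran from -0.29 (-0.2855) to 0.13, with 0.07 without BMH21 replicate 2, and H2ax from -0.06 (-0.0579) to 0.14 (0.1371). H2ax read -0.0017 under upper quartile scaling. The cause of these changes of sign was not tested. Of the 26 called genes named around ATR, 15 kept their call in every alternative that tested them. Over all genes 4013 were called, 56.9% of them higher, against 4285 and 42.1% under upper quartile scaling, which shifted the median by -0.05.

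Same-numbered replicates did not deviate together (correlation 0.01 over 7560 genes). With 2 replicates a group this cannot show whether the numbers pair the samples, and the sources used here do not say. With the replicate number as a block 3784 genes were called, and with crossed numbers, added after the data were seen, 3838. The same 3 members were called in both. The weakest members, Hus1b and Etaa1, had 80 to 176 counts per library, which leaves 95% intervals of about 1 log2 unit.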
